A study of Mus musculus with 30 samples.

Results

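Cpeb1, Cpeb2, Cpeb3 and Cpeb4 encode the cytoplasmic polyadenylation element binding proteins (CPEB). These 4 genes were taken by symbol from the 22609 genes counted in each library, and all 4 were measured in all 30 libraries. CPEB proteins bind short U-rich elements in the 3′ UTR of mRNAs. There they hold an mRNA in a silent state with a short poly(A) tail or, after a signal such as phosphorylation, promote lengthening of the tail and translation. Cpeb1 is the founding member, known from oocytes and from synapses. Cpeb2, Cpeb3 and Cpeb4 form a closely related subgroup, and CPEB-dependent translation in the axons of nociceptors has been studied in models of lasting pain.

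U-rich elements are shown first, because they let a reader see what kind of target is meant and that the CPEB mRNAs hold such stretches. Which of the 4 proteins reads these letters was not examined. The longest annotated 3′ UTR of each gene was searched on the mRNA strand for TTTTAT and TTTTAAT, which are written as DNA and of which neither contains the other. For each gene the element nearest to the 3′ end is printed 5′ to 3′ in a stretch of 30 bases, with the element in capitals. Prlr, the prolactin receptor named in the title of the series, is shown beside the 4 genes. Sequences and positions are those of GENCODE M21 on GRCm38.
Cpeb1, chr7:81347256-81347285, minus strand: ttgacttttctTTTTAATttaacgattact
Cpeb2, chr5:43289554-43289583, plus strand: taatttagtttaTTTTATtgttatcttcca
Cpeb3, chr19:37021506-37021535, minus strand: ggaataaattaaTTTTATgatgctaattct
Cpeb4, chr11:31935406-31935435, plus strand: gggtaattcattTTTTATtaaagtcatttt
Prlr, chr15:10336860-10336889, plus strand: tttctctcatatTTTTATtgcatgctaaaa

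All 4 CPEB mRNAs and Prlr held at least 1 element in the last 300 bases of the 3′ UTR. Among 16570 genes whose annotated 3′ UTR is at least that long, 35.9% held one there. Over the whole 3′ UTR, Cpeb2 had 24 elements in 3778 bases (6.35 per kb) and Cpeb4 had 17 in 4102 bases (4.14 per kb). Cpeb1 had 4 in 1315 bases (3.04 per kb), Cpeb3 had 6 in 3569 bases (1.68 per kb) and Prlr had 13 in 7742 bases (1.68 per kb). The median over the same 16570 genes was 0.995 per kb. A match of these letters is a description of the sequence and does not show binding, and the 3′ ends used in these tissues were not measured.

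Sensory neurons have their cell bodies in the dorsal root ganglia (DRG), and these ganglia and the hind paw were taken from C57BL/6J mice of 10-12 weeks of age. Female and male mice each gave a group labelled PRL (prolactin, 1 µg injected into the paw) and a group labelled Veh (vehicle; the protocol names PBS) in each tissue, sequenced after rRNA depletion. A further female group per tissue, PRL_Sh, also received prolactin and was sequenced from selected mRNA (TruSeq kit); what Sh stands for is not explained. Each of the 10 groups has 3 libraries, the protocol describes both a single injection and 12 daily injections without assigning them to groups, and the labels list 18 female and 12 male libraries where the series text has the reverse numbers. Whether replicates came from different animals is not stated. A p-value here therefore reflects only how far these libraries spread, which may be technical.

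Among libraries made by rRNA depletion, gene reads ran from 8.99 to 13.3 M for DRG and from 6.87 to 13.5 M for paw, and PRL_Sh libraries held 21.8 to 26.5 M. Male paw Veh replicate 2 was the shallowest, with 55.5% of its counted total not aligned uniquely and 13.6% in genes. In the other rRNA-depleted paw libraries these shares were 41.5% to 44.8% and 22.3% to 26.2%. The tissue labels matched their markers: the summed level of 10 sensory neuron markers ran from 5880 to 8904 CPM (depth-normalised read counts) in DRG and no higher than 44.6 CPM in paw, and 6 keratinocyte markers summed to at least 33508 CPM in every paw library and at most 84.5 CPM in every DRG library. The arms also differed in genes outside the family that were singled out with their values known: Wdfy1 averaged 88.2 CPM in female DRG PRL, 31.1 CPM in Veh and 23.8 CPM in PRL_Sh, and Nnt, a gene that carries a deletion in C57BL/6J mice, averaged 51.2, 20.5 and 17.6 CPM in the same groups. Every PRL library lay above every Veh library for both genes in both sexes and tissues: in paw Wdfy1 averaged 55.6 against 28.3 CPM in females and 58.2 against 26.8 CPM in males, and Nnt 31.7 against 10.2 CPM and 48.4 against 12.1 CPM. The labels do not say whether the PRL and Veh mice came from the same colony, so treatment and any difference in stock cannot be told apart. A response below means the PRL libraries against the Veh libraries and nothing more.

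The family was expressed in both tissues, with Cpeb1 the member that marked DRG. CPM values are relative to the gene reads of each library after TMM scaling over all 30 libraries. Over the 12 rRNA-depleted DRG libraries Cpeb1 ran from 156.9 to 194.8 CPM with a median of 177.6, and over the 12 rRNA-depleted paw libraries from 11.6 to 27.9 CPM with a median of 17.9. The ranges are far apart. The other members lay closer together in the 2 tissues, and their order differed from gene to gene.

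Levels can be compared between genes only per length, so CPM was divided by the exon length of each gene (4192 bases for Cpeb1, 7816 for Cpeb2, 7414 for Cpeb3 and 6369 for Cpeb4). In female DRG Veh the order was Cpeb1 at 42.0 ± 3.25 CPM per kb (SD, n = 3), Cpeb2 at 32.4 ± 0.860, Cpeb4 at 11.8 ± 0.528 and Cpeb3 at 10.4 ± 0.761. In female paw Veh the order was Cpeb2 at 45.8 ± 5.22 CPM per kb, Cpeb4 at 16.2 ± 0.658, Cpeb3 at 6.12 ± 0.862 and Cpeb1 at 4.23 ± 0.562. In female Veh, Cpeb1 thus went from the highest of the 4 in DRG to the lowest in paw. It was not the lowest in female paw PRL_Sh, at 6.07 ± 1.13 CPM per kb against 5.71 ± 1.70 for Cpeb3 and 5.01 ± 0.889 for Cpeb4. With coding length in place of exon length, Cpeb3 stood at 35.9 ± 2.63 and Cpeb4 at 34.5 ± 1.54 CPM per kb in female DRG Veh, so the order of these 2 members in DRG depends on the length used.

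**Figure D1:**
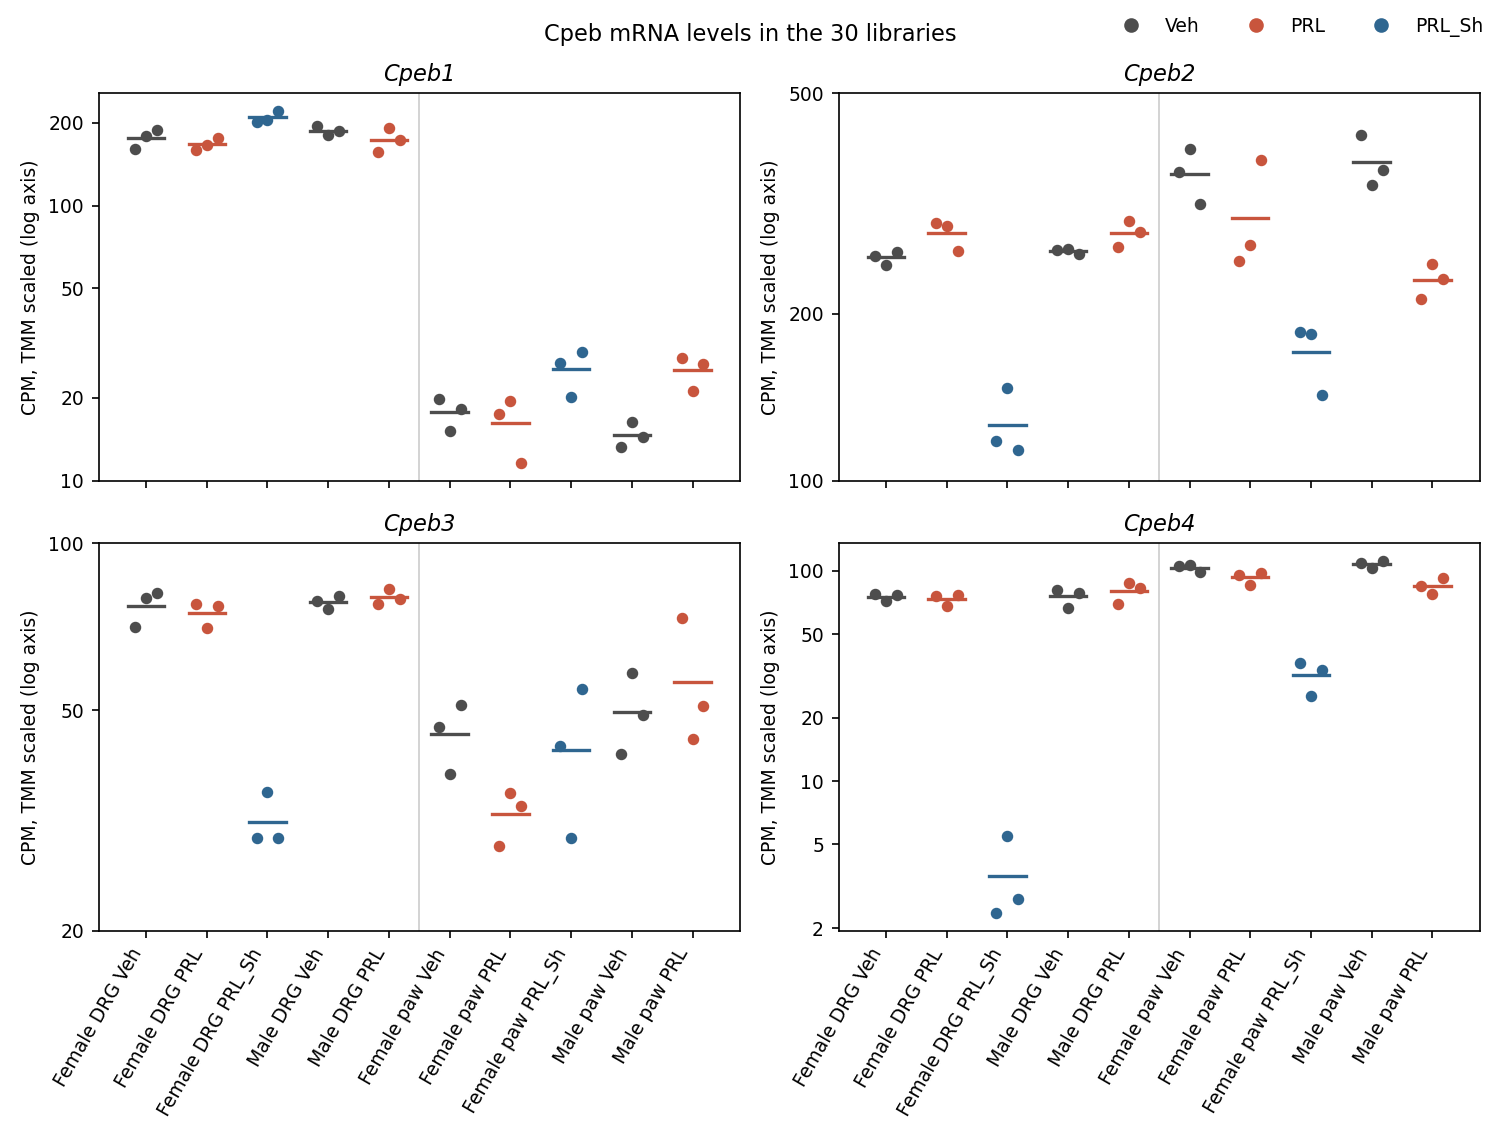
Level of each CPEB mRNA in all 30 libraries (CPM after TMM scaling, log axis), 1 panel a gene, with 1 point a library, a line at each group mean and a vertical line between the DRG groups on the left and the paw groups on the right. Cpeb1 lies between 156.9 and 220.9 CPM in DRG and at or below 29.3 CPM in paw, and Cpeb4 lies between 2.36 and 5.51 CPM in the DRG PRL_Sh libraries.

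Cpeb1 was higher in DRG than in paw in each arm. In Veh the 6 DRG libraries ran from 161.3 to 194.8 CPM and the 6 paw libraries from 13.2 to 19.8 CPM, and the difference was 3.48 ± 0.12 on the log2 scale (fitted value ± SE, edgeR quasi-likelihood test, adjusted p = 7.46e-17), an 11.2-fold higher level in DRG. In PRL it was 2.99 ± 0.11 (edgeR, adjusted p = 7.25e-16) and in PRL_Sh 3.28 ± 0.15 (edgeR, adjusted p = 5.35e-07). This is the same direction as the sensory neuron markers. The 8 Schwann and satellite glia markers were also higher in DRG, with sums of at least 12791 CPM against at most 684.5 CPM in paw. Which cell type holds Cpeb1 was not tested. In bulk tissue, more cells of a type and more RNA per cell cannot be told apart.

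All 4 members passed the test between tissues in Veh, where 85.4% of all genes tested did, so the count itself says little about the family. Cpeb3 was also higher in DRG, by 0.70 ± 0.12 on the log2 scale in Veh (edgeR, adjusted p = 1.14e-05). Its Veh libraries lay between 70.8 and 81.2 CPM in DRG and between 38.4 and 58.3 CPM in paw, without overlap. Cpeb2 and Cpeb4 were lower in DRG than in paw, with log2 differences of -0.53 ± 0.08 (edgeR, adjusted p = 3.95e-06) and -0.50 ± 0.07 (edgeR, adjusted p = 4.81e-07). Cpeb2 stood between 245.6 and 262.0 CPM in DRG Veh and between 315.8 and 421.5 CPM in paw Veh. Cpeb4 stood between 66.6 and 81.3 CPM in DRG Veh and between 98.6 and 111.3 CPM in paw Veh.

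In the PRL arm, where 83.7% of all genes tested differed between tissues, 3 of the 4 members did. Cpeb2 was the one that did not, with a log2 difference between DRG and paw of 0.01 ± 0.08 (edgeR, adjusted p = 0.891), while Cpeb3 differed by 0.77 ± 0.12 (edgeR, adjusted p = 3.28e-06) and Cpeb4 by -0.29 ± 0.07 (edgeR, adjusted p = 0.000385). In the PRL_Sh arm, where 80.2% of all genes tested differed, 2 of the 4 did. They were Cpeb1 and Cpeb4, the latter by -2.95 ± 0.32 on the log2 scale (edgeR, adjusted p = 6.11e-05). Cpeb2 and Cpeb3 had log2 differences of -0.20 ± 0.14 and -0.20 ± 0.21 in PRL_Sh (edgeR, adjusted p = 0.214 and 0.419). Cpeb2 passed at -0.31 without paw PRL_Sh replicate 3 and Cpeb3 at -0.41 without paw PRL_Sh replicate 2, where Cpeb3 was lowest. With the mean level of the skeletal muscle markers as a covariate the Cpeb4 difference in PRL_Sh was -0.99 and no longer passed the test. That covariate ran from 3.09 to 6.68 on the log2 scale in DRG PRL_Sh and from 11.1 to 12.0 in paw PRL_Sh. Muscle level and tissue therefore cannot be told apart in this fit.

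Ordered by mean level, few neighbouring groups of the same gene were separated. Of the 9 neighbouring pairs among the 10 groups, the ranges overlapped in 6 for Cpeb1, 7 for Cpeb2, 9 for Cpeb3 and 6 for Cpeb4. Neighbours in an order of means lie close by construction, and the share over all genes was not computed. These counts are therefore a description and not a result about the family. For Cpeb1 the gaps lay between DRG PRL_Sh and male DRG Veh, between DRG and paw, and between male paw PRL and female paw Veh. For Cpeb4 they set apart the paw Veh groups at the top and the PRL_Sh groups at the bottom. For Cpeb2 they lay between male DRG PRL and male DRG Veh, and between male paw PRL and paw PRL_Sh.

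No CPEB mRNA passed the test of prolactin against vehicle in DRG. In female DRG 0 of 4 members passed (edgeR), against 0.653% of all genes tested. There 1 member, Cpeb2, had an unadjusted p under 0.05 (edgeR), as did 12.0% of all genes. In male DRG 0 of 4 passed, against 0.517%, and 0 had an unadjusted p under 0.05 (edgeR), against 14.9% of all genes. DESeq2 also called 0 of 4 in each sex. The 95% intervals of the 8 log2 changes reached no further from 0 than 0.26 in females and 0.29 in males.

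Cpeb2, a repressor of translation elongation on target mRNAs such as Hif1a, was the member nearest to a change in DRG. Female DRG Veh libraries held 254.8, 245.6 and 258.6 CPM and female DRG PRL libraries 291.8, 287.7 and 260.2 CPM. Male DRG Veh libraries held 261.1, 262.0 and 256.9 CPM and male DRG PRL libraries 263.9, 293.8 and 281.1 CPM. In both sexes every PRL library lay above every Veh library, though by a narrow gap; in female DRG 15.5% and in male DRG 19.3% of all genes had groups that did not overlap. The log2 changes were 0.14 ± 0.06 in females (edgeR, adjusted p = 0.334) and 0.11 ± 0.06 in males (edgeR, adjusted p = 0.402). Averaged over the sexes the change was 0.12 ± 0.04 (edgeR, adjusted p = 0.101), in a comparison that called 3.6% of all genes, and it passed the test only without female DRG PRL replicate 3 (edgeR, adjusted p = 0.0347).

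The other 3 members overlapped between PRL and Veh in DRG of both sexes. Cpeb1 ran from 159.8 to 175.9 CPM in female PRL and from 161.3 to 188.0 in female Veh, with a log2 change of -0.08 ± 0.07, and its change in males was -0.11 ± 0.07. Cpeb3, which acts at synapses, ran from 70.4 to 77.7 CPM in female PRL and from 70.8 to 81.2 in female Veh. Cpeb4 ran from 67.7 to 76.6 CPM in female PRL and from 71.5 to 77.6 in female Veh. The changes of Cpeb3 and Cpeb4 were between -0.05 and 0.09 on the log2 scale in the 2 sexes. With arms and sexes pooled, the coefficients of variation were 4.84% to 8.41% over the 12 DRG libraries and 10.9% to 26.9% in paw. These values include differences between the groups. Within single rRNA-depleted groups, Cpeb1, Cpeb2 and Cpeb3 had a lower value in every DRG group than in any paw group. Cpeb4 did not, with 4.46% to 11.9% in DRG groups and 3.92% to 8.87% in paw groups.

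Markers of other cells did differ between the DRG arms. The 7 fibroblast and matrix markers summed to between 4989 and 7041 CPM in female PRL and between 2968 and 4257 CPM in female Veh, and 4 of the 7 rose in each sex. The 8 Schwann and satellite glia markers summed to between 18752 and 24639 CPM in female PRL and between 14858 and 16328 CPM in female Veh, and 1 of the 8 rose in each sex. None of the 10 sensory neuron markers passed the test. The 10 skeletal muscle markers summed to between 239 and 6363 CPM in female PRL and between 119 and 469 CPM in female Veh, and none passed. The part of these cells in the CPEB levels was not tested.

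**Figure D2:**
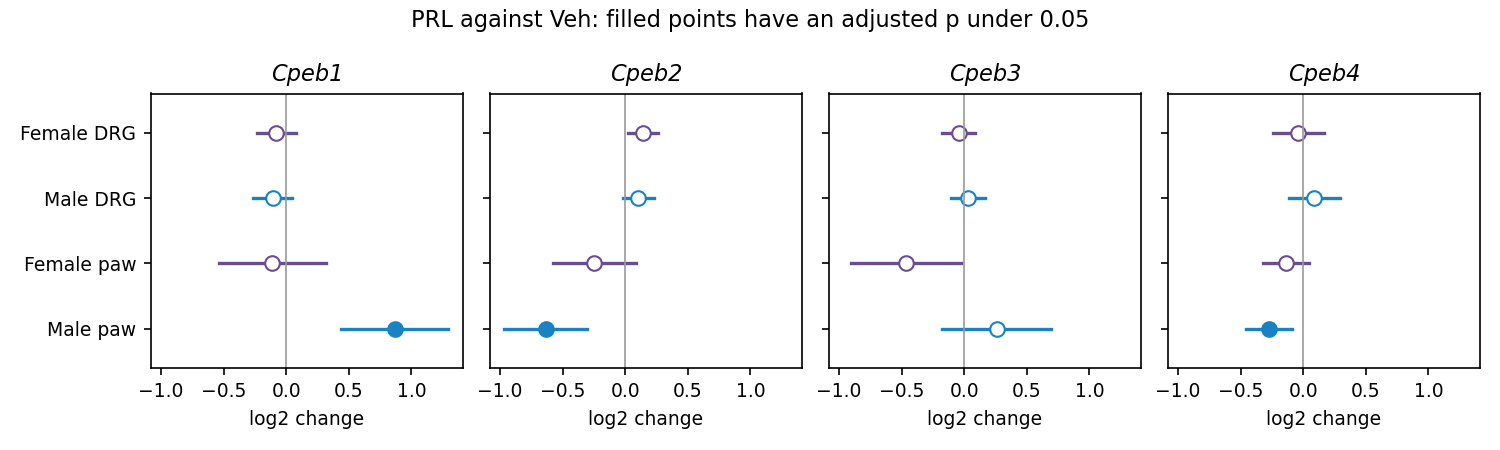
Log2 change of each CPEB mRNA with PRL against Veh in 4 settings (fitted value with its 95% interval; filled points have an adjusted p under 0.05 in edgeR). The filled points are Cpeb1 at 0.87, Cpeb2 at -0.63 and Cpeb4 at -0.27, all in male paw, and the DRG points lie between -0.11 and 0.14.

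In male paw 3 of the 4 CPEB mRNAs differed between PRL and Veh, in a comparison that called 22.4% of all genes tested. Cpeb1 rose, and Cpeb2 and Cpeb4 fell. The same 3 had groups that did not overlap, which held for 41.5% of all genes there. In female paw 0 of 4 passed (edgeR), against 7.55% of all genes. There 1 member, Cpeb3, had an unadjusted p under 0.05 (edgeR), as did 20.6% of all genes. DESeq2 called 0 of 4 in female paw as well.

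Cpeb1 was low in paw and rose in males. Male paw Veh libraries held 13.2, 16.3 and 14.4 CPM and male paw PRL libraries 27.9, 21.2 and 26.5 CPM. All PRL libraries lay above all Veh libraries, and the log2 change was 0.87 ± 0.20 (edgeR, adjusted p = 0.00926), a 1.82-fold higher level. It passed in all 13 alternatives, with values from 0.67 to 0.94. In females, Veh held 19.8, 15.2 and 18.2 CPM and PRL 17.5, 19.6 and 11.6 CPM, with overlapping groups and a log2 change of -0.11 ± 0.20 (edgeR, adjusted p = 0.807). Averaged over the sexes the change was 0.38 ± 0.14 (edgeR, adjusted p = 0.0654), and it passed at 0.48 without female paw PRL replicate 3 (edgeR, adjusted p = 0.00887) and at 0.38 with the mean level of skeletal muscle markers as a covariate (edgeR, adjusted p = 0.00348). The counts behind these paw values were small, from 102 to 327 reads a library.

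The sign of the female Cpeb1 value was not settled: it was 0.08 both without female paw PRL replicate 3 and with the muscle covariate, and its 95% interval ran from -0.54 to 0.32. The difference between the sexes did not pass. The female response minus the male response was -0.98 ± 0.28 on the log2 scale, with an unadjusted p of 0.00432 and an adjusted p of 0.222 (edgeR). In that comparison 1 gene, 0.00679% of all tested, passed in edgeR and 158 did in DESeq2, and 0 of the 4 members passed in edgeR. Cpeb1 and Cpeb3 had an unadjusted p under 0.05 there (edgeR), as did 13.1% of all genes, and no member was called by DESeq2. The Cpeb3 value was -0.72 ± 0.28 (edgeR, adjusted p = 0.329).

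Cpeb2 fell in male paw. Veh libraries held 421.5, 342.4 and 364.3 CPM and PRL libraries 212.6, 246.5 and 231.1 CPM, a wide gap. The log2 change was -0.63 ± 0.15 (edgeR, adjusted p = 0.0120), kept in all 13 alternatives with values from -0.72 to -0.50. Female Veh libraries held 361.1, 397.2 and 315.8 CPM and female PRL libraries 248.8, 266.8 and 379.8 CPM. The first 2 of those PRL libraries lay below all Veh libraries and the third within them, and the log2 change was -0.25 ± 0.15 (edgeR, adjusted p = 0.406). Without female paw PRL replicate 3 it was -0.45 and passed (edgeR, adjusted p = 0.0375), and with the muscle covariate it was -0.41 and passed (edgeR, adjusted p = 0.0152). Averaged over the sexes Cpeb2 fell by 0.44 ± 0.11 on the log2 scale (edgeR, adjusted p = 0.0110), in a comparison that called 24.9% of all genes and kept Cpeb2 in all 18 alternatives.

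Cpeb4, which acts with Cpeb1 in cell division and is also studied in stress and metabolism, had a smaller change. Male paw Veh libraries held 109.2, 103.1 and 111.3 CPM and PRL libraries 85.0, 77.1 and 92.2 CPM. The groups did not overlap and the log2 change was -0.27 ± 0.08 (edgeR, adjusted p = 0.0366). The call was lost at changes of similar size: -0.25 with the muscle covariate (edgeR, adjusted p = 0.0607), -0.29 with only the 2 groups in the fit (edgeR, adjusted p = 0.0549), and from -0.31 to -0.24 without male paw PRL replicate 1 or 2 or male paw Veh replicate 1 or 3, where the highest adjusted p was 0.108. Female Veh libraries held 105.3, 106.3 and 98.6 CPM and female PRL libraries 95.8, 85.3 and 97.8 CPM, again without overlap, with a log2 change of -0.14 ± 0.08 (edgeR, adjusted p = 0.404). Averaged over the sexes Cpeb4 fell by 0.20 ± 0.06 on the log2 scale (edgeR, adjusted p = 0.0257), a call lost without female paw PRL replicate 2, female paw Veh replicate 1 or 2, or male paw Veh replicate 3, where the values ran from -0.20 to -0.18.

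Cpeb3 was the member with no call in paw of either sex. Female Veh libraries held 46.6, 38.4 and 51.0 CPM and female PRL libraries 28.4, 35.4 and 33.6 CPM. These groups did not overlap, as was the case for 24.5% of all genes, and the log2 change was -0.46 ± 0.20 (edgeR, adjusted p = 0.216). Male Veh libraries held 41.6, 58.3 and 48.9 CPM and male PRL libraries 73.5, 44.3 and 50.8 CPM, which overlapped. The male log2 change was 0.26 ± 0.20 (edgeR, adjusted p = 0.373), and -0.02 without male paw PRL replicate 1. With the muscle covariate the Cpeb3 change was 0.16 in males (edgeR, adjusted p = 0.583) and -0.33 in females (edgeR, adjusted p = 0.318).

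No member passed the test between the sexes in the vehicle groups. Female against male Veh called 0 of 4 members in DRG, against 0.0544% of all genes, with adjusted p from 0.783 to 0.998 (edgeR). It called 0 of 4 in paw, against 0.109%, with adjusted p from 0.787 to 0.980 (edgeR). No member had an unadjusted p under 0.05 (edgeR) or a DESeq2 call in either tissue. Of all genes, 6.83% in DRG and 8.10% in paw had an unadjusted p under 0.05 (edgeR). The 95% intervals reached as far as 0.24 from 0 in DRG. In paw they reached 0.73 for Cpeb1, -0.55 for Cpeb3, -0.39 for Cpeb2 and -0.23 for Cpeb4. A sex difference of moderate size in paw may therefore have been missed, above all for Cpeb1 and Cpeb3. The difference between the female and male responses in DRG also gave 0 of 4 calls and 0 of 14705 genes in edgeR (with 537 genes at an unadjusted p below 0.05 and 1 call by DESeq2), with an adjusted p of 0.993 for each member.

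Cell type markers moved with the paw arms as well. In males the 6 keratinocyte markers summed to between 33508 and 41368 CPM in PRL and between 53666 and 63234 CPM in Veh, and 3 of the 6 fell. In females the sums were 34734 to 47658 CPM in PRL and 38569 to 50690 CPM in Veh, and none of the 6 passed. The 8 macrophage and leukocyte markers rose in both sexes, 7 of 8 in males and 8 of 8 in females, with sums of 1619 to 1812 CPM in male PRL against 551 to 801.5 CPM in male Veh. The 7 fibroblast and matrix markers summed to 20933 to 31854 CPM in male PRL and 10726 to 16455 CPM in male Veh, with 4 of 7 rising. Of 4 adipocyte markers 2 fell in males, with sums of 50.2 to 77.4 CPM in PRL and 80.2 to 86.1 CPM in Veh. The part of these cells in the CPEB changes was not tested.

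Skeletal muscle was uneven between single paw libraries. Its 10 markers summed to between 712 and 13257 CPM in female PRL, 3767 and 13246 in female Veh, 13707 and 30035 in male PRL and 4221 and 18037 in male Veh, and none of the 10 passed in either sex. Female paw PRL replicate 3, the library in which Cpeb1 was lowest (11.6 CPM) and Cpeb2 within the Veh range (379.8 CPM), had the lowest muscle sum. Male paw PRL replicate 1, in which Cpeb3 was highest (73.5 CPM), had the highest muscle sum of the rRNA-depleted paw libraries. With the muscle covariate the male changes were 0.67 for Cpeb1 (edgeR, adjusted p = 0.00182) and -0.50 for Cpeb2 (edgeR, adjusted p = 0.00218). Among the erythrocyte markers Hba-a1 and Hbb-b1 were at 0 in every group.

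**Figure D3:**
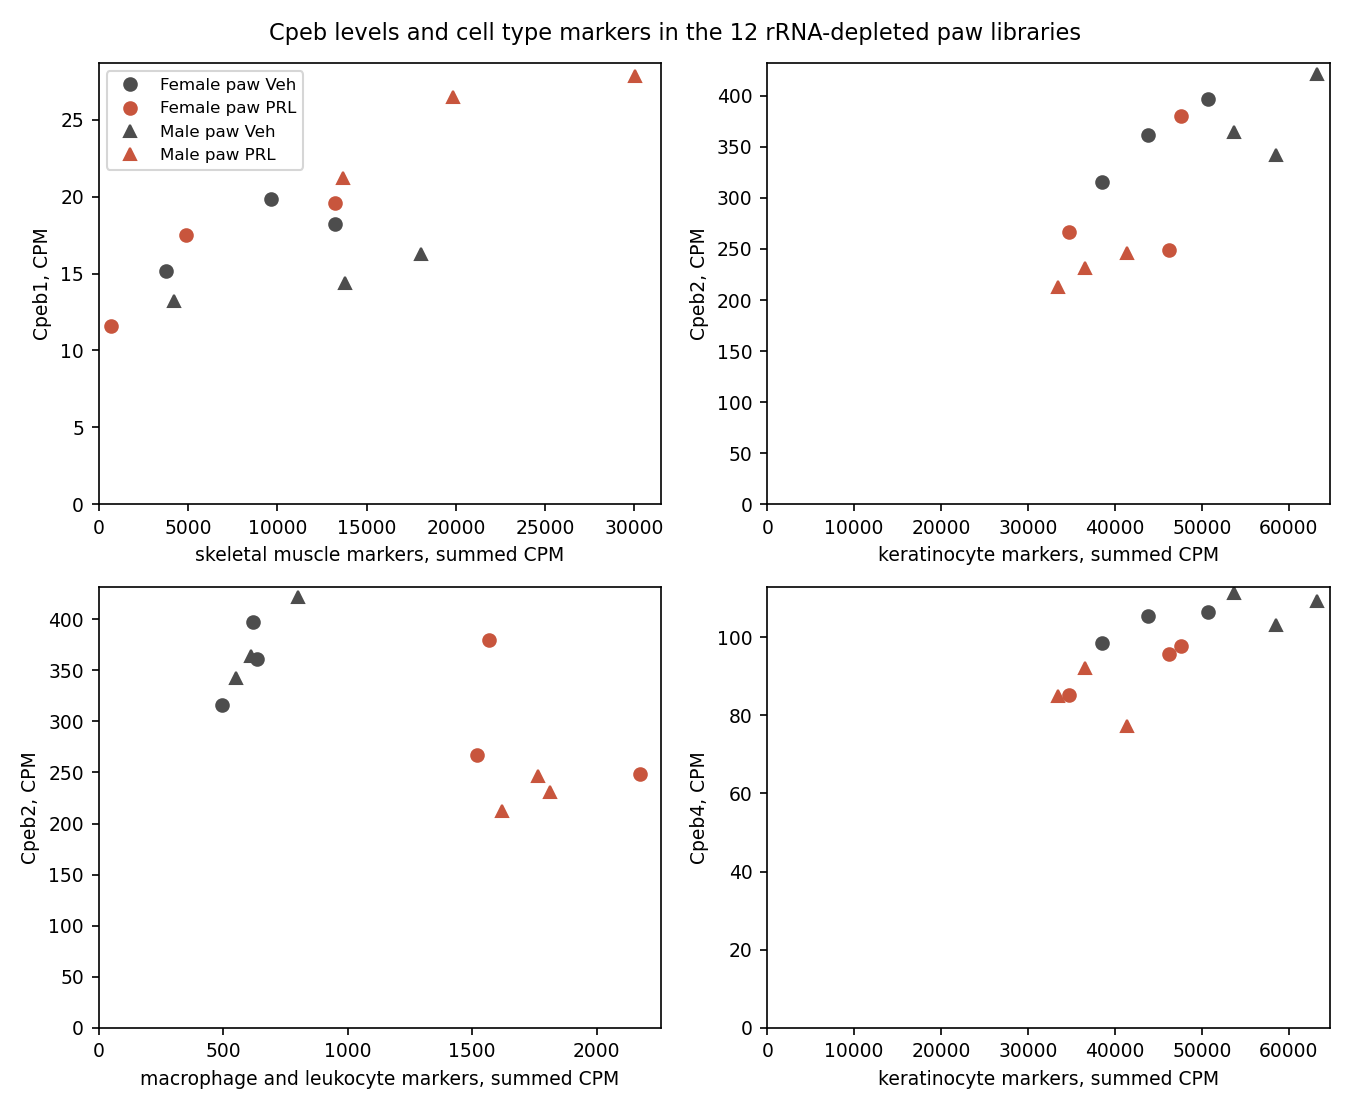
CPM of Cpeb1, Cpeb2 and Cpeb4 against the summed CPM of skeletal muscle, keratinocyte or macrophage markers in the 12 rRNA-depleted paw libraries (circles female, triangles male, red PRL, grey Veh; all axes start at 0). Cpeb2 is highest, at 421.5 CPM, in the male Veh library with the highest keratinocyte sum and lowest, at 212.6 CPM, in the male PRL library with the lowest. Female PRL replicates 1 and 3 have keratinocyte sums of 46221 and 47658 CPM and Cpeb2 at 248.8 and 379.8 CPM.

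Cpeb1 and Cpeb2 ran in opposite directions across paw libraries. After each tissue's mean was subtracted, their log2 CPM had a Pearson r of -0.79 over the 24 rRNA-depleted libraries, -0.86 over the 12 paw libraries and 0.06 over the 12 DRG libraries. The points share the arms and the cell mixture of each library, and the r is a description. Cpeb2 and Cpeb4 had an r of 0.60 and Cpeb1 and Cpeb3 of 0.58 over the same 24 libraries. For Cpeb1 and Cpeb3 the r was 0.76 over the DRG libraries and 0.57 over the paw libraries. Over the 24 it was 0.26 without the 2 libraries farthest from the median of Cpeb1, and 0.50 without the 2 farthest from that of Cpeb3.

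By the same measure, among 12015 genes expressed in both tissues, the genes most like Cpeb1 were Vapb, Mtap1a and Tmed4 (r from 0.91 to 0.92). Their r was 0.92, 0.92 and 0.95 over the paw libraries and 0.92, 0.93 and 0.61 over the DRG libraries. Those most like Cpeb2 were Ssfa2 (r = 0.94), Ctnnbip1 and Cyp2j6, whose r was 0.97, 0.96 and 0.96 over the paw libraries and 0.41, 0.18 and 0.60 over the DRG libraries. Those most like Cpeb3 were Prkab2, Pde4d and Ppp3cb (r = 0.92 for each). Their r was 0.95, 0.94 and 0.93 over the paw libraries and 0.47, 0.48 and 0.70 over the DRG libraries. Cpeb4 had no neighbour as near: Qrich1, Mal2 and Kdsr came first, with r from 0.74 to 0.75.

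The Cpeb2 response differed between the tissues. Paw response minus DRG response, averaged over the sexes, was -0.55 ± 0.11 on the log2 scale for Cpeb2 (edgeR, adjusted p = 0.00283), in a comparison that called 14.9% of all genes, and it passed in all 30 alternatives. Cpeb1 differed by 0.49 ± 0.15 (edgeR, adjusted p = 0.0353). That call was lost in 15 of the 24 fits that left out 1 library, with adjusted p from 0.0539 to 0.0726 (edgeR) in those 15, and the values over all 24 ran from 0.40 to 0.59. The libraries concerned were replicates 1 and 2 of female DRG PRL and of female paw PRL, replicates 2 and 3 of female DRG Veh, replicate 2 of female paw Veh, and replicates 1 and 3 of each of the 4 male groups. Cpeb4 (-0.21 ± 0.09) and Cpeb3 (-0.08 ± 0.16) did not pass (edgeR, adjusted p = 0.144 and 0.831).

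Few partners of the CPEB proteins differed between PRL and Veh. In DRG of each sex 0 genes passed in any of 6 lists: 14 of the polyadenylation machinery, 11 repression partners, 15 of deadenylation and Tob/Btg proteins, 13 kinases, phosphatases and ligases that act on CPEB, 20 other proteins that bind the 3′ UTR, and 12 measured mRNAs reported as CPEB targets. With 0.653% of all genes called in females and 0.517% in males, 0 calls in lists of this size say little. Averaged over the sexes in DRG, Zfp36l2, which promotes decay of AU-rich mRNAs, rose by 0.29 and Hif1a, a reported Cpeb2 target, by 0.13 on the log2 scale, where 3.6% of all genes passed.

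In male paw the polyadenylation machinery had 2 rises and 1 fall among 14 genes: Pabpc4, a poly(A) binding protein, at 0.91, Cpsf2, a cleavage and polyadenylation factor, at 0.35, and the poly(A) polymerase Tent4b at -0.34 on the log2 scale. Its median change was -0.16, against 0.02 over all genes. Deadenylation had 3 falls among 15 genes, Tob1 (-0.70), Cnot6 (-0.38) and Cnot2 (-0.25), and a median of -0.25. Tob1 is an adaptor that brings the deadenylase complex to CPEB-bound mRNAs. Of 18 other RNA-binding proteins measured, 3 fell, all decay factors of the Zfp36 family: Zfp36 (-1.24), Zfp36l2 (-0.56) and Zfp36l1 (-0.55). Among 12 reported targets Plat rose by 0.73 while Myc fell by 1.03 and Map2, listed as Mtap2, by 0.66. None of 11 repression partners or 13 kinases, phosphatases and ligases passed. Beside the 22.4% of all genes called there, these shares are not high.

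In female paw the kinase Aurka, known for phosphorylating Cpeb1, rose by 0.61 and Tacc3, kin of the repressor Maskin, by 0.43, while Myc fell by 0.51 on the log2 scale. No gene passed among the polyadenylation machinery, the deadenylation list or the other RNA-binding proteins. Aurka, Tacc3 and Myc were the only calls among 13, 11 and 12 genes of their lists, beside 7.55% of all genes. Prlr itself fell in paw averaged over the sexes, by 0.44 ± 0.13 on the log2 scale (edgeR, adjusted p = 0.0299), from 96.4 ± 5.80 to 71.9 ± 25.8 CPM in females and from 73.1 ± 3.08 to 50.0 ± 2.39 CPM in males. In DRG Prlr stood at 13.0 ± 1.52 CPM in female Veh and 14.6 ± 2.17 CPM in female PRL (SD, n = 3), and did not pass.

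PRL_Sh differed from PRL in most members, and here the library kit and the group cannot be told apart, since every PRL_Sh library was made by mRNA selection and every PRL library by rRNA depletion. In female DRG all 4 members passed, where 61.6% of all genes tested did. Cpeb1 was higher and the other 3 were lower in PRL_Sh. In female paw 2 of the 4 passed, where 58.5% of all genes did, and both were lower.

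Cpeb4 had the largest difference of the 4. The DRG PRL libraries held 76.1, 67.7 and 76.6 CPM and the DRG PRL_Sh libraries 2.36, 5.51 and 2.76 CPM, from 68, 137 and 83 reads. The log2 difference was -4.40 ± 0.28 (edgeR, adjusted p = 7.88e-06), which 1.11% of the 14985 genes tested lay at or below. In paw it went from 95.8, 85.3 and 97.8 CPM in PRL to 36.3, 25.5 and 33.9 CPM in PRL_Sh, a log2 difference of -1.63 ± 0.16 (edgeR, adjusted p = 0.000226). Both differences passed in all 12 alternatives.

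Cpeb2 and Cpeb3 were also lower in DRG PRL_Sh. Cpeb2 held 118.0, 147.1 and 113.8 CPM there against 260.2 to 291.8 CPM in PRL, a log2 difference of -1.15 ± 0.11 (edgeR, adjusted p = 5.47e-05). Cpeb3 held 29.4, 35.6 and 29.4 CPM against 70.4 to 77.7 CPM, a log2 difference of -1.26 ± 0.09 (edgeR, adjusted p = 1.74e-05). In paw Cpeb2 held 185.2, 184.2 and 142.8 CPM against 248.8 to 379.8 CPM, a difference of -0.90 ± 0.19 (edgeR, adjusted p = 0.00567) that was -0.43 and did not pass with the muscle covariate. The covariate ran from 5.57 to 9.95 in paw PRL and from 11.1 to 12.0 in paw PRL_Sh. It cannot be told apart from the groups here. Paw Cpeb3 overlapped, with 43.0, 29.4 and 54.6 CPM in PRL_Sh and a log2 difference of 0.30 ± 0.24 (edgeR, adjusted p = 0.312) that passed at 0.50 without paw PRL_Sh replicate 2 (edgeR, adjusted p = 0.0481).

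Cell type markers moved with the DRG groups too. All 7 fibroblast and matrix markers were lower in PRL_Sh, with sums of 2061 to 2435 CPM against 4989 to 7041 CPM in PRL, as were 3 of 3 adipocyte markers tested and 4 of 8 macrophage and leukocyte markers. Of 10 sensory neuron markers 6 were higher and 1 lower, with sums of 7788 to 8904 CPM against 5957 to 6897 CPM, and of 6 keratinocyte markers, at sums no higher than 43.9 CPM, 4 were higher and 1 lower. Their part in the 4 DRG differences was not tested.

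Cpeb1 went the other way. Its DRG PRL_Sh libraries held 201.7, 205.7 and 220.9 CPM against 159.8 to 175.9 CPM in PRL, a log2 difference of 0.32 ± 0.06 (edgeR, adjusted p = 0.00314) with no overlap. In paw the PRL_Sh libraries held 26.8, 20.2 and 29.3 CPM, with a log2 difference of 0.56 ± 0.24 (edgeR, adjusted p = 0.0785). It passed without paw PRL replicate 2 (edgeR, adjusted p = 0.0468) or paw PRL_Sh replicate 2 (edgeR, adjusted p = 0.0490). With the muscle covariate, in which these groups did not overlap, the difference was -0.16. Beside these values, the 10 muscle markers summed to between 25843 and 47728 CPM in paw PRL_Sh and at most 13257 CPM in paw PRL, 6 of the 10 passing, while all 8 macrophage and leukocyte markers were lower in PRL_Sh. Of 7 fibroblast and matrix markers 6 were lower, with sums of 2086 to 3187 CPM in PRL_Sh and 18322 to 24904 CPM in PRL. All 6 Schwann and satellite glia markers tested were higher, and 3 of 4 adipocyte markers were lower. Their part in the CPEB differences was not tested.

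**Figure D4:**
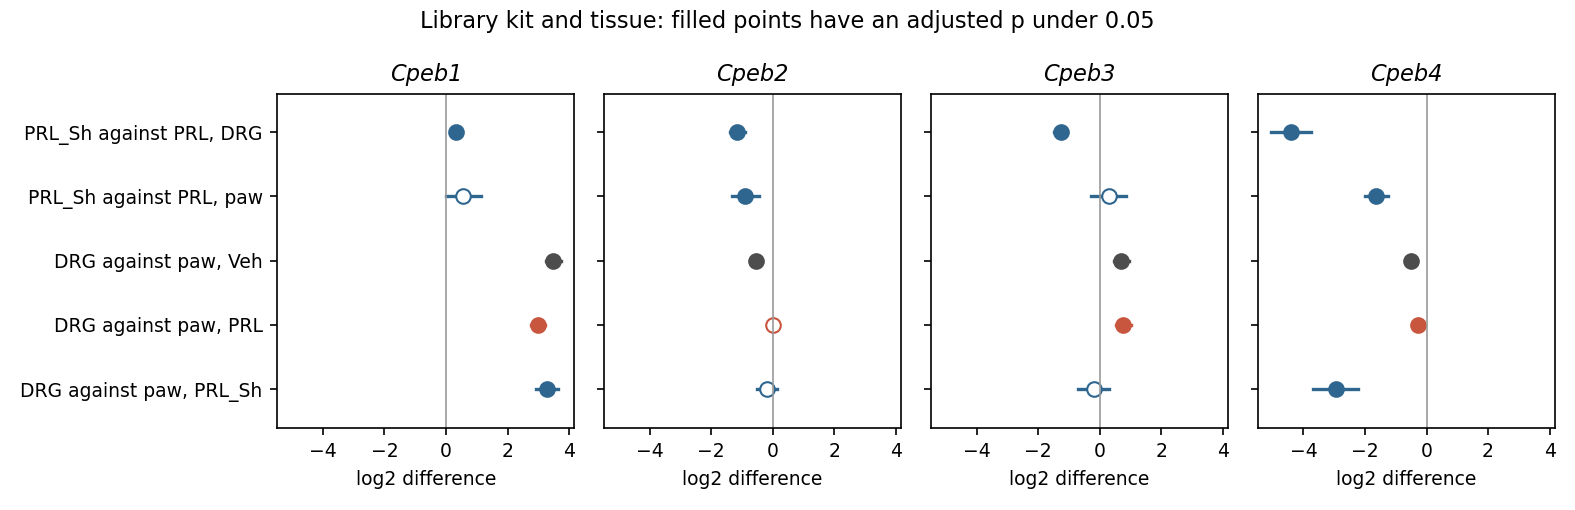
Log2 difference of each CPEB mRNA between PRL_Sh and PRL in each tissue and between DRG and paw in each arm (fitted value with its 95% interval; filled points have an adjusted p under 0.05 in edgeR). Cpeb1 stands alone on the right in the 3 tissue comparisons, at 2.99 to 3.48, and Cpeb4 on the left for PRL_Sh against PRL in DRG, at -4.40.

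The shift of PRL_Sh differed between the tissues for Cpeb3 and Cpeb4. The paw difference minus the DRG difference was 2.82 ± 0.34 on the log2 scale for Cpeb4 (edgeR, adjusted p = 0.000157) and 1.62 ± 0.26 for Cpeb3 (edgeR, adjusted p = 0.000817), in a comparison that called 38.6% of all genes and had a median over all genes of 0.19. That median moved by -0.22 with RLE scaling and by -0.34 with no filter on low counts, and Cpeb3 and Cpeb4 stood at no less than 1.29 and 2.49 in any alternative. Both passed in all 18 alternatives. Cpeb1 (0.31 ± 0.24) and Cpeb2 (0.33 ± 0.24) did not pass (edgeR, adjusted p = 0.330 and 0.308), though Cpeb2 did at 0.55 without female paw PRL replicate 3 (edgeR, adjusted p = 0.0460).

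Genes around the CPEB proteins also differed between PRL_Sh and PRL in DRG, where 61.6% of all genes passed, so the counts below are not a result about these lists. Of 15 deadenylation genes 9 were lower and 3 higher, led by Cnot1 (-1.63), Cnot6 (-2.81), Cnot6l (-2.98) and Pan3 (-1.34), subunits of the deadenylase complexes, with a list median of -0.61, where the median over all genes was close to 0. Of 20 other RNA-binding proteins 13 were lower and 1 higher, including Ago2, the microRNA effector, at -2.46 and Pum2 at -1.35. Of 14 genes of the polyadenylation machinery 8 were lower and 2 higher, with Tent2, the poly(A) polymerase that works with Cpeb1, at -1.02. The kinases, phosphatases and ligases went the other way, with 7 of 13 higher, such as Mapk3 at 0.81, and 2 lower. Prlr was lower by 1.99 ± 0.20 (edgeR, adjusted p = 8.66e-05).

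Limits of the counting apply to 2 members. In GENCODE M21 the exons of Cpeb2 share 137 bases with the antisense gene Gm7854 and those of Cpeb3 share 116 bases with the antisense gene A330032B11Rik. Both kits mark the strand, but the setting used in counting is not given in the sources used here, so reads of these stretches may belong to either gene. The counts are per gene and do not separate isoforms.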

How the data were processed

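RNA of 30 mouse libraries was sequenced as single reads. The deposited files hold raw counts of reads for 22609 genes, and 5 summary lines in each were left out of all totals. The authors used bcl2fastq, TopHat2, HTSeq and the assembly mm9, per the submitters' processing notes; which version, annotation, counting mode or strand option was used is not given in the sources used here.

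Tests were those of edgeR 4.0.16 under R 4.3.3 (filterByExpr, TMM, quasi-likelihood F test, Benjamini-Hochberg over all genes tested, threshold 0.05), in fits of the 12 rRNA-depleted libraries of a tissue, of all 24, of the 6 PRL_Sh libraries, of PRL and PRL_Sh in a tissue (6 libraries), and of PRL and PRL_Sh in both tissues (12 libraries). The code was tested on simulated data. The alternatives used DESeq2 1.42.0, scaling by RLE, all genes unfiltered, a minimum of 1 CPM in 3 libraries, only the groups compared, the replicate number as a block, the mean log2 CPM of the skeletal muscle markers as a covariate, and each library left out in turn. Levels were also computed without TMM and per coding length. Named were all 4 CPEB genes, the called genes of a list with the smallest p (4 at most), and the 3 genes most like each member by Pearson r of log2 CPM (prior count 1), passing over predicted genes. The CPEB genes and the lists were chosen with earlier results of these data known. Lengths and 3′ UTRs came from GENCODE M21 on GRCm38, matched by symbol, and a 3′ UTR was used where it had at least 300 bases. No replicate pair of a group agreed within sampling noise: the lowest chi-square per degree of freedom was 2.42.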

Additional observations from a re-analysis of the deposited data

Results flagged for a closer look

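The test of the difference itself set apart 4 results. The response of Cpeb2 (PRL against Veh) was lower in paw than in DRG by 0.55 on the log2 scale (-0.55, SE 0.11), in a comparison in which 14.9% of all genes tested also passed. For Cpeb1 the paw response was 0.49 higher than the DRG response (SE 0.15), but this call was lost in 15 of 24 fits without 1 library (edgeR, adjusted p from 0.0539 to 0.0726) and with the replicate block (edgeR, adjusted p = 0.0507). Of PRL against Veh in each sex and tissue, Cpeb1 passed in male paw.

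The difference between PRL_Sh and PRL was 2.82 higher in paw than in DRG for Cpeb4 (SE 0.34) and 1.62 higher for Cpeb3 (SE 0.26), where 38.6% of all genes tested passed. Library kit and group cannot be told apart in either tissue.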

How the results depend on the processing

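Over 1088 refits of 68 log2 values of the 4 genes, 1008 kept direction and side of the threshold, 28 lost a call, 11 gained one and 41 changed sign, the last only among values that had not passed. With the muscle covariate the number of CPEB genes called was 1 in female paw PRL against Veh (0 in the main analysis), 1 in paw PRL_Sh against PRL (2) and 1 in DRG against paw PRL_Sh (2), and signs turned for Cpeb1 in female paw (0.080), Cpeb1 in paw PRL_Sh against PRL (-0.16), Prlr in the female minus male paw response (-0.26), Cpeb2 in DRG against paw PRL (-0.071) and PRL_Sh (0.32), Cpeb3 in DRG against paw PRL_Sh (0.66) and Cpeb3 in the paw minus DRG response (0.0018). The muscle covariate also cost Cpeb4 its call in male paw (edgeR, adjusted p = 0.0607). It gave Cpeb1 a call in the paw average (edgeR, adjusted p = 0.00348). In paw PRL_Sh against PRL and in DRG against paw PRL_Sh, the groups did not overlap in this covariate, so muscle level and group cannot be told apart. Cpeb4 in DRG female against male Veh was -0.0040 with DESeq2 and -0.0011 with RLE scaling. With no filter the paw minus DRG difference of PRL_Sh was -0.028 for Cpeb1 and -0.0091 for Cpeb2. Same-numbered replicates showed no steady agreement (r from -0.55 to 0.48 between deviations). In the paw minus DRG response 19 of 84 such pairs had an r above 0.1. Female DRG PRL with female paw PRL had r of 0.12, -0.13 and 0.43. These mixed values cannot settle whether the numbers pair samples, and the main fits did not pair them. With the replicate number as a block, 1 gene rather than 2 passed in the paw minus DRG response. Cpeb1 then had an adjusted p of 0.0507 (edgeR), and no other CPEB count moved.

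Leaving out 1 library gave these ranges of CPEB genes called: 0 to 1 in the DRG average, 0 to 1 in female paw, 1 to 3 in the paw average, 2 to 4 in paw PRL_Sh against PRL and 1 to 2 in the paw minus DRG response. In male paw the Cpeb4 call was lost in 4 of 6 such fits. For DRG against paw PRL_Sh, Cpeb2 and Cpeb3 each gained a call in 1 of 6 fits. Cpeb2 also gained one in 1 of 12 fits of the paw minus DRG difference of PRL_Sh. Log2 values that changed sign ranged as follows. In female DRG, Cpeb3 from -0.10 to 0.0026 and Cpeb4 from -0.079 to 0.018; in male DRG, Prlr from -0.012 to 0.23; in the DRG average, Cpeb3 from -0.034 to 0.018 and Cpeb4 from -0.018 to 0.069. In the DRG female minus male response, Cpeb1 from -0.038 to 0.10, Cpeb2 from -0.00079 to 0.092 and Prlr from -0.061 to 0.18. In DRG female against male Veh, Cpeb3 from -0.049 to 0.040, Cpeb4 from -0.078 to 0.059 and Prlr from -0.17 to 0.070. In female paw, Cpeb1 from -0.28 to 0.084; in male paw, Cpeb3 from -0.024 to 0.37; in the paw female minus male response, Prlr from -0.25 to 0.27. In paw female against male Veh, Cpeb2 from -0.13 to 0.024 and Cpeb3 from -0.23 to 0.025. In DRG against paw PRL, Cpeb2 from -0.050 to 0.12; in the paw minus DRG response, Cpeb3 from -0.20 to 0.0020; in DRG against paw PRL_Sh, Cpeb3 from -0.41 to 0.030; in the paw minus DRG difference of PRL_Sh, Cpeb1 from -0.029 to 0.47. The cause of these moves was not tested.

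Over all genes, the count in female DRG was 96 in edgeR and 203 in DESeq2, and in male DRG 76 and 305. In the paw female minus male response it was 1 and 158, and in paw female against male Veh 16 and 108. Over all alternatives it ranged from 193 to 992 in the DRG average (530), 579 to 1635 in female paw (1111), 2017 to 3701 in male paw (3301), 5282 to 9004 in paw PRL_Sh against PRL (8653), 5171 to 13293 in DRG against paw PRL_Sh (12612) and 3542 to 6289 in the paw minus DRG difference of PRL_Sh (6223). Without TMM, 35 of 40 group levels stayed within 1 SD. The lowest counts were those of Cpeb4 in DRG PRL_Sh, at 68 to 137 reads a library, and of Cpeb1 in rRNA-depleted paw, at 102 to 327.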

Other observations

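Most genes that work with the CPEB proteins also differed between the tissues in Veh, where 85.4% of all genes tested did. Of 13 kinases, phosphatases and ligases acting on CPEB, 8 were higher and 4 lower in DRG. With the smallest p among them were Camk2d, a subunit of a calcium-dependent kinase, at 1.77 on the log2 scale, the kinase Mapk3 at 2.14, the phosphatase subunit Ppp1ca at -0.78 and the ubiquitin ligase subunit Btrc at 1.93. Of 15 deadenylation and Tob/Btg genes 13 were lower in DRG and 1 was higher, among them Tob1 at -2.90, Btg1 at -3.22 and Tob2 at -1.78, with a list median of -1.08 against -0.02 over all genes. Of 14 genes of the polyadenylation machinery 10 were lower and 2 higher, with the poly(A) binding protein gene Pabpc1 at -1.65.

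Of 14 measured mRNAs reported as CPEB targets 5 were higher in DRG Veh and 9 lower. The glutamate receptor genes Gria1 and Gria2 stood at 6.90 and 6.84 on the log2 scale, and Myc and Egfr at -3.52 and -2.52. Of 20 other proteins that bind the 3′ UTR 7 were higher, among them the neuronal Elavl2, Elavl3 and Elavl4 at 8.68, 9.25 and 8.87, and 9 were lower, among them Zfp36l2 at -2.41. Prlr was lower in DRG by 2.67 on the log2 scale in Veh (-2.67, SE 0.13; edgeR, adjusted p = 7.99e-14). In PRL_Sh it averaged 3.68 ± 0.838 CPM in DRG and 35.4 ± 5.38 CPM in paw (SD, n = 3).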
